A study of Homo sapiens with 24 samples.

Results

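Chromosome 5 carried 884 protein-coding genes in the deposited expression table, of which 501 reached 1 FPKM in at least 4 of the 24 libraries and are described here. FPKM counts the sequenced fragments of a gene for each kilobase of its length, relative to the size of the library. They were divided by gene start, at a position between NDUFS4 (start at 53.56 Mb) and ARL15 (start at 53.88 Mb), into a proximal block of 80 genes (of 162 protein-coding genes there) and a distal block of 421 (of 722), because the CES1KD and WT lines differed in opposite directions on either side. The chromosome and its division were thus chosen by the measured differences between the lines, so these differences, and the counts of genes the model called for them, are given below as a description and not as a test. The libraries came from THP-1, a human monocytic leukaemia line, in 6 groups of 4: WT and CES1KD cells, each resting (M0), stimulated toward M1 with LPS and interferon gamma, or stimulated toward M2 with IL-4. All groups had first been turned into macrophages with 20 nM of the phorbol ester PMA for 72 hours. M1 cells then received LPS at 1 ug/ml with interferon gamma at 100 ng/ml, and M2 cells received IL-4 at 100 ng/ml. CES1KD cells had reduced CES1, the gene of carboxylesterase 1, an enzyme of lipid and drug ester hydrolysis. The sample labels give neither the number of clones behind CES1KD nor whether WT cells carried a control vector, so CES1 loss, vector and cell line history cannot be told apart in any difference between the lines.

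Human chromosome 5 has a short arm (5p) and a much longer arm (5q) joined at the centromere, a stretch of repeats almost free of annotated genes. RNA output of most genes follows the number of their copies, while genes under strong feedback or signal control can depart from it. Loss of part of 5q is a recurrent change of myelodysplastic syndromes and myeloid leukaemia, where lower RPS14 (a small ribosomal subunit protein), CSNK1A1 (a casein kinase), EGR1 (a transcription factor) and NPM1 (a nucleolar chaperone) have been studied as dosage-sensitive genes. In macrophages, 5q also carries CSF1R, the receptor of the growth factor M-CSF, CD14, a co-receptor for LPS, and CD74, the invariant chain of MHC class II. The measurements here are RNA levels. DNA copy number was not measured, and its part in the differences below was not tested.

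The upstream sequences of 4 members that the results turn on are given first. MRPS30 is the last member before the change of direction along the chromosome and PARP8 the nearest member beyond it with an entry in the promoter table. DUSP1 ranked first among the genes against the direction of their own arm, and the difference of EGR1 between the lines changed from M0 to M1. Each run is the 250 bases before the annotated start in RefSeq on GRCh38.p14, written 5′ to 3′. Capitals mark the last 50 bases before the start in MRPS30 and PARP8, a TATA box (TATAAA) and a cAMP response element (TGACGTCA) in DUSP1, and a CArG box in EGR1.
MRPS30, chr5:44808697-44808946, plus strand: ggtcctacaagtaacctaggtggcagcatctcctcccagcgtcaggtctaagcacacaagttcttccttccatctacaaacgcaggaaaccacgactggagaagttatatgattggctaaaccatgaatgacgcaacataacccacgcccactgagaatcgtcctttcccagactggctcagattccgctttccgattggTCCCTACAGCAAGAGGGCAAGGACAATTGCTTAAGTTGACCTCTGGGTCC
PARP8, chr5:50665681-50665930, plus strand: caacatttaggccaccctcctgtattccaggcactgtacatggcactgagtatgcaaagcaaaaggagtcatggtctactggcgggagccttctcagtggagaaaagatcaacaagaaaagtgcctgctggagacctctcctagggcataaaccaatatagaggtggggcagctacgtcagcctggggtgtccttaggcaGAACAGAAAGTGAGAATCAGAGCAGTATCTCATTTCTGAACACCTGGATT
DUSP1, chr5:172771196-172771445, minus strand: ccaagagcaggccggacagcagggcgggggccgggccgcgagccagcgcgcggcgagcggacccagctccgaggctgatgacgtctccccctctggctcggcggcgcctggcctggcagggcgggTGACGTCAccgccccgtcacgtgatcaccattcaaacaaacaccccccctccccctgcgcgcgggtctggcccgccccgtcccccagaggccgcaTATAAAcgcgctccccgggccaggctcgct
EGR1, chr5:138465229-138465478, plus strand: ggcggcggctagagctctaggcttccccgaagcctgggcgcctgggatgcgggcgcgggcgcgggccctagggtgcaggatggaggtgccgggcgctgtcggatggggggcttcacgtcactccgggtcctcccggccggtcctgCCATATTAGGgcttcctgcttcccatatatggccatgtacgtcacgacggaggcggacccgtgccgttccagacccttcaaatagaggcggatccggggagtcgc
The TATA box of DUSP1 began 30 bases before the annotated start and its cAMP response element 125 bases before it. The CArG box marked in EGR1 began 105 bases before the start. Only its exact letters were searched for. Another CArG box of EGR1, with different letters and nearer the start, was left in lower case.

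The libraries held 14881563 to 26671681 fragments on genes. CES1, on another chromosome, had WT means of 7.13 (M0), 4.63 (M1) and 6.32 (M2) FPKM, and at most 0.0809 in a CES1KD group, which fits its labels. Of 8 macrophage and monocyte markers, CSF1R, SPI1, FCER1G, TYROBP and ITGAM were above 24.3 FPKM in every library, CD14 lay between 1.39 and 52.7, LYZ was 1.83 or more, and CD68, a lysosomal marker, was listed at 0 to 0.113 FPKM. The lines differed in some of them: LYZ averaged 11.8, 13.9 and 9.24 FPKM in WT M0, M1 and M2 and 2.38, 2.40 and 2.33 in CES1KD, and ITGAM 68.1 in WT M0 and 40.5 in CES1KD M0. The defining markers DCN, LUM, EPCAM, CD3E and HBB did not exceed 0.00841 FPKM in any library. Replicate 2 of CES1KD M2 stood apart from the other 3 of its group over all genes kept, and not only on chromosome 5. On log2(FPKM + 1) it correlated with them at 0.9506 to 0.9565, and they with each other at 0.9893 to 0.991. The M2 medians and main M2 changes are also given without this library.

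Genes of the short arm were higher in CES1KD and genes of the long arm were lower, in resting and in both stimulated states. The median log2 difference, CES1KD minus WT on log2(FPKM + 1), over the 80 proximal genes was 0.58 at rest (M0), 0.61 under M1 and 0.58 under M2. For the 421 distal genes the 3 values were -0.47, -0.48 and -0.47. As ratios of mean FPKM, which do not include the added 1, the median proximal gene stood at 1.63, 1.64 and 1.60 times its WT level, and the median distal gene at 0.673, 0.674 and 0.68 times. In the limma model of all genes, with a Benjamini-Hochberg adjusted p under 0.05, 60 proximal genes were called higher in M0, 64 in M1 and 62 in M2. Across all 13242 genes kept, 28.1% were called higher in M0, 28.5% in M1 and 25.6% in M2. In the distal block 294 genes were called lower at rest, 296 in M1 and 301 in M2, and the shares called lower over all genes were 26.3%, 28.7% and 26.7%. Since the blocks were chosen for these differences, the counts only describe them.

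**Figure D1:**
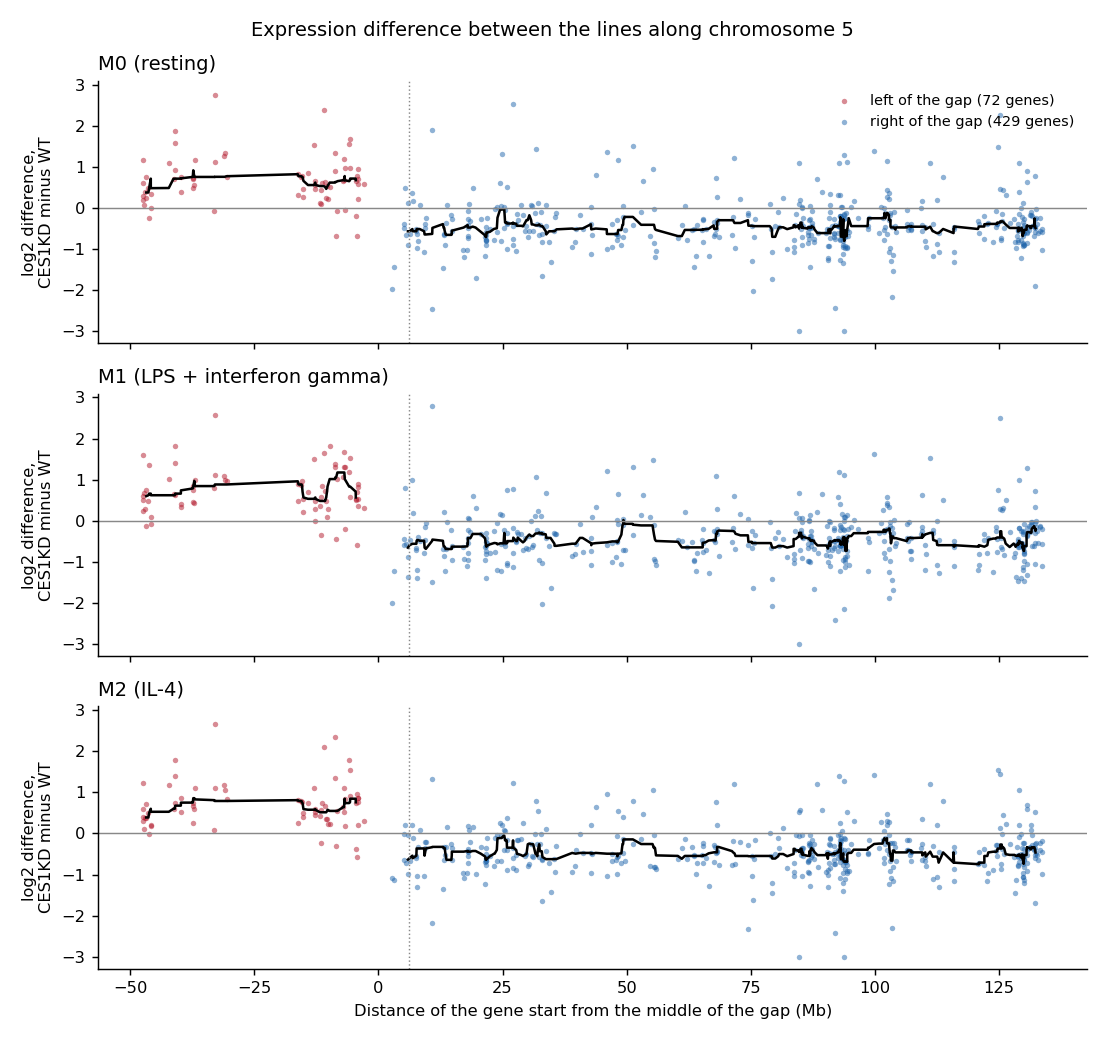
Log2 difference between CES1KD and WT of each of the 501 genes (vertical axis, log2(FPKM + 1), values beyond 3 drawn at 3) by distance of its start from the middle of the gap between MRPS30 and EMB (horizontal axis, Mb), in M0, M1 and M2. Black lines are medians of 15 neighbouring genes and the dotted line is the division between NDUFS4 and ARL15; short-arm genes sit mostly above 0 and long-arm genes mostly below, with the change at the gap and not at the dotted line.

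The direction changed at the gap around the centromere, left of the division used to choose the blocks. With the 501 genes in order, the single split that left the smallest summed absolute deviation from the medians of both sides fell between MRPS30 and EMB in M0, in M1 and in M2, with 72 genes on the short-arm side and 429 on the long-arm side. The summed deviation there was 216.94 in M0, against 222.343 for the division between NDUFS4 and ARL15. For M1 the sums were 220.96 against 227.666, and for M2 203.399 against 208.77. MRPS30 ends at 44820428 and EMB starts at 50396192, 5.576 Mb further on, in coordinates of the deposited table, which equal GENCODE 29 on GRCh38 for each of the 501 genes. Only 6 annotated genes of any kind start in that gap, 1 of them protein-coding and 1 of them kept, a long non-coding RNA beside MRPS30. The change of direction is thus placed no more finely than this gap.

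MRPS30, a protein of the mitochondrial ribosome, had 13.7, 13.6, 12.8 and 15.3 FPKM in the 4 WT M0 libraries and 20.8, 21.5, 20.5 and 21.6 in the 4 CES1KD M0 libraries. All CES1KD libraries were above all WT libraries, with ratios of mean FPKM of 1.52 in M0, 1.25 in M1 and 1.26 in M2. PAIP1, a translation factor that binds the poly(A)-binding protein, starts 1.28 Mb before MRPS30 and rose from 19.45 ± 1.10 FPKM in WT M0 to 38.2 ± 1.25 in CES1KD M0 (SD, n = 4 each). EMB, a glycoprotein that escorts lactate transporters to the cell surface, had 82.7, 91.0, 85.4 and 95.4 FPKM in WT M0 and 23.1, 22.1, 20.7 and 21.6 in CES1KD M0. The groups did not overlap, and the ratio stood at 0.247, 0.243 and 0.469 in M0, M1 and M2. PARP8, an ADP-ribosyltransferase and the next gene along, had 19.5, 20.1, 19.3 and 19.6 FPKM in WT M0 and 6.47, 6.85, 6.14 and 7.07 in CES1KD M0. Its ratios were 0.338, 0.408 and 0.431 in M0, M1 and M2, so the first expressed genes on the long-arm side were further below WT than the median of that arm.

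The 8 genes between the gap and the division, which belong to the proximal block, lay with the long arm: EMB, PARP8, ITGA1, PELO, ITGA2, MOCS2, FST and NDUFS4. Their median log2 differences were -0.56, -0.74 and -0.68 for M0, M1 and M2, and 6, 7 and 7 of the 8 were lower in CES1KD. NDUFS4, a subunit of respiratory complex I and the last gene before the division, stood at 0.523, 0.526 and 0.498 times WT in M0, M1 and M2. ARL15, a small GTPase and the nearest gene beyond it, stood at 0.594, 0.694 and 0.579 times. Both neighbours of the division thus lay on the same side of 0. ITGA2, the collagen-binding integrin alpha 2, was higher in all 3 states, and FST in M0, by 0.12 on the log2 scale. ITGA2 had ratios of 2.63, 2.81 and 2.23 from levels under 1 FPKM in every WT group. PELO lies within ITGA1, so their reads may not be separable. In the rest of the text the short arm is the 72 genes left of the gap and the long arm the 429 right of it.

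Divided at the gap, the short-arm medians for M0, M1 and M2 were 0.64, 0.69 and 0.62 on the log2 scale, with 64, 65 and 67 of 72 genes higher in CES1KD. The long-arm median was -0.47, -0.49 and -0.47, with 349, 355 and 365 of 429 genes lower. Within each arm the shift extended along most of its expressed length. In bins of 10 Mb with at least 10 genes, the 4 short-arm bins had medians of 0.48 to 0.76 in M0 and the 13 long-arm bins medians of -0.64 to -0.36. Medians of 15 neighbouring genes were above 0 in 58 of 58 short-arm windows in each state. They were below 0 in 415 of 415 long-arm windows in M0 and in M2 and in 414 of 415 in M1, where the exception, centred on the aminopeptidase gene LNPEP, was 0.02. In M0 and M2 the highest long-arm window, centred on TNPO1 at 72.82 Mb, was close to 0, at -0.03 and -0.05. The windows overlap and share genes, so they are not independent.

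Every library showed the shift. Against the mean of the 4 WT libraries of the same state, the median log2 ratio over the short arm was 0.68, 0.64, 0.66 and 0.59 in CES1KD M0 and 0.67, 0.69, 0.78 and 0.63 in CES1KD M1. In CES1KD M2 it was 0.56, 0.84, 0.53 and 0.60. The long-arm medians lay between -0.51 and -0.38 in the 12 CES1KD libraries. Each WT library was set against the mean of the other WT libraries of its state. Both arms lay between -0.14 and 0.13 in the 12 WT libraries, so the lines did not overlap on either arm. Replicate 2 of CES1KD M2 had the highest value of its group on both arms. Without it the median of the proximal block in M2 was 0.50 and that of the distal block -0.49. The genes of the proximal block took 0.666 to 0.763% of a library's fragments in WT and 1.02 to 1.25% in CES1KD, and those of the distal block 4.36 to 4.69% and 3.01 to 3.56%.

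**Figure D2:**
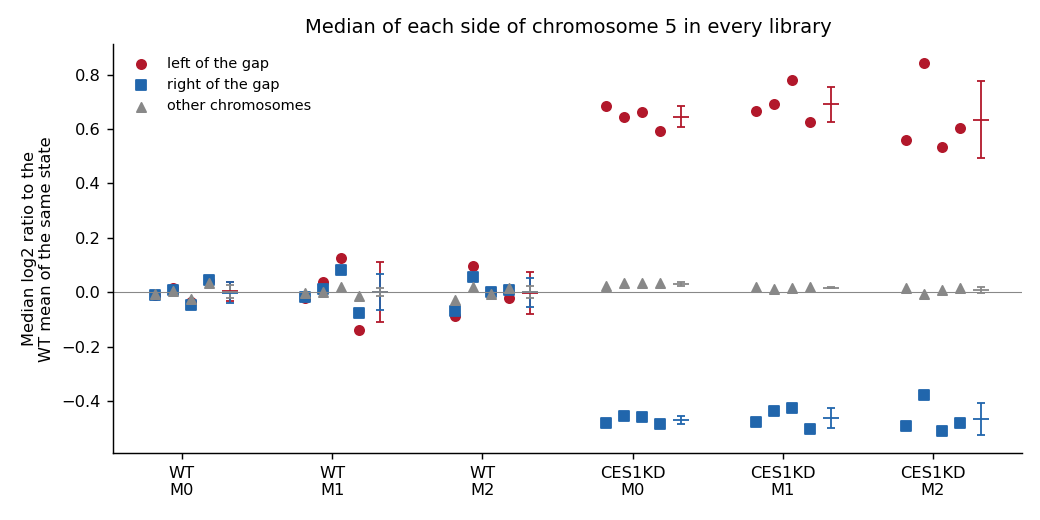
Median log2 ratio to the WT mean of the same state (vertical axis) for short-arm genes, long-arm genes and genes of the other chromosomes in each of the 24 libraries (horizontal axis, 6 groups). For a WT library that mean leaves out the library itself. Bars are means and SD of 4 libraries; CES1KD libraries lie above 0.5 on the short arm and below -0.3 on the long arm, and replicate 2 of CES1KD M2 is the highest of its group on both.

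The other chromosomes gave the scale for these medians. Over the protein-coding genes kept on each of 22 other chromosomes, the median log2 difference lay between -0.05 (chromosome 13) and 0.14 (chromosome 8) in M0, between -0.07 and 0.16 in M1 and between -0.06 and 0.15 in M2. Over all 10445 of them it was 0.03, 0.02 and -0.00, with the quartiles at -0.24 and 0.31 in M0. No other whole chromosome came near either arm of chromosome 5. A stretch of 160 genes on chromosome 1 and a stretch of 119 genes on chromosome 8, both noted earlier in these data, had M0 medians of 0.57 and 0.47, of the size of the short-arm median. The spread of genes within each arm was wide. In M0 the 10th to 90th percentile ran from 0.00 to 1.34 on the short arm and from -1.03 to 0.26 on the long arm.

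**Figure D3:**
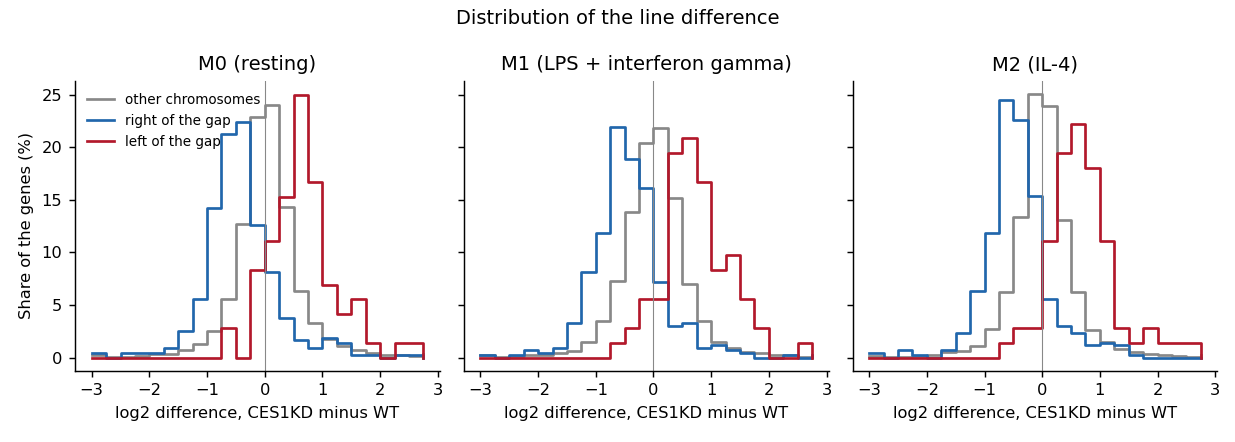
Share of genes (vertical axis, %) by log2 difference between CES1KD and WT (horizontal axis, bins of 0.25) for 72 short-arm genes, 429 long-arm genes and 10445 genes of the other chromosomes, in M0, M1 and M2. The short-arm curve is displaced to the right of 0 and the long-arm curve to the left as a whole, with a tail of long-arm genes above 0.

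The size of the ratio changed little with the level of the gene. On the short arm the median ratio of mean FPKM in M0 was 1.73 for 19 genes under 5 FPKM in WT, 1.66 for 36 genes at 5 to 20 FPKM and 1.65 for 17 genes at 20 FPKM or above. On the long arm it was 0.677 for 145 genes, 0.68 for 162 genes and 0.668 for 122 genes of the same classes. Filtering touched few genes: 11 members reached 1 FPKM in no WT library and 18 in no CES1KD library, and those 29 could only differ between the lines. All 24 libraries were at 1 FPKM or above for 68 of the 72 short-arm and 343 of the 429 long-arm genes. Non-coding genes, which the choice of members left out, showed the same directions, with smaller medians on the log2(FPKM + 1) scale. On the short arm 19, 24 and 20 of 26 long non-coding and other RNAs were higher in M0, M1 and M2 (median log2 difference 0.32, 0.49 and 0.38), and on the long arm 44, 41 and 39 of 56 were lower (-0.34, -0.34 and -0.23). As ratios of mean FPKM, without the added 1, the medians of these RNAs were 1.42, 1.97 and 1.55 on the short arm. Protein-coding genes there had 1.67, 1.67 and 1.69. On the long arm the RNAs had 0.68, 0.661 and 0.73 and protein-coding genes 0.673, 0.6725 and 0.679. Pseudogenes, whose reads may come from parent genes elsewhere, had median log2 differences of 0.07, 0.05 and 0.15 over 10 short-arm genes and -0.33, -0.41 and -0.38 over 37 long-arm genes.

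Among short-arm genes the furthest along the shift was ANKH, a membrane protein that moves ATP and pyrophosphate out of cells. ANKH had 4.95, 5.04, 5.01 and 4.56 FPKM in WT M0 and 38.2, 38.2, 36.9 and 40.9 in CES1KD M0. Its ratio of mean FPKM stood at 7.88, 7.77 and 7.65 in M0, M1 and M2, with no overlap between the lines in any state. SRD5A1, a steroid 5-alpha reductase, had ratios of 5.96, 4.66 and 5.15, and SLC1A3, a glutamate transporter, 5.98, 3.20 and 4.81. RICTOR, a core subunit of mTOR complex 2, stood at 2.82, 2.76 and 2.95 times WT, although its gene overlaps OSMR at the far end. TENT4A, a non-canonical poly(A) polymerase, AHRR, the repressor of the aryl hydrocarbon receptor, OXCT1, an enzyme of ketone body use, and C5orf51 completed the 8 genes furthest along, with ratios between 2.35 and 4.13. Large ratios such as these were exceptions, since 3 in 4 short-arm genes stood below 2.09 times WT in M0. GOLPH3, a Golgi protein, was typical, at 88.4 ± 4.04 FPKM in WT M0 and 149.9 ± 6.80 in CES1KD M0 (SD, n = 4 each), a ratio of 1.70. NIPBL, the cohesin loader, had ratios of 1.59, 1.69 and 1.69.

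On the long arm TMEM173, which encodes the cyclic dinucleotide sensor STING, had 43.6, 41.3, 38.1 and 40.1 FPKM in WT M0 and 6.83, 6.92, 6.72 and 6.59 in CES1KD M0. The lines did not overlap in any state, and the ratio stood at 0.166, 0.154 and 0.157 in M0, M1 and M2. PDLIM4, an actin-associated LIM protein whose gene overlaps P4HA2, stood at 0.0669, 0.0521 and 0.0457 times WT. PPIC, a cyclophilin, was at 0.214, 0.283 and 0.293, GAPT, a membrane protein that binds GRB2, at 0.144, 0.288 and 0.13, and ANXA6, an annexin, at 0.188, 0.299 and 0.1595. RPS23, a ribosomal protein, at 0.393, 0.305 and 0.366, and the protocadherin PCDHGA12 were also among the genes furthest along. The protocadherin gamma genes share their 3′ exons, so the value of a single one of them depends on how reads were divided. CANX, the calnexin chaperone of the endoplasmic reticulum, was typical of the arm, at 267 ± 12.6 FPKM in WT M0 and 178 ± 5.10 in CES1KD M0, a ratio of 0.668.

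Gene lists of chromosome 5, drawn up with earlier results of these data known, followed their arms to different degrees. Of 18 expressed genes tied to 5q loss in myeloid disease, 13 were called lower and 1 higher in M0, 16 and 1 under M1, and 14 and 1 under M2, with a median log2 difference of -0.56, -0.60 and -0.58 beside 0.00, 0.00 and -0.01 over all genes tested. For this list and those that follow, the shares called lower over all genes were 26.3%, 28.7% and 26.7%. Over the long arm they were 69.9%, 70.6% and 71.3%. The shares called higher were 28.1%, 28.5% and 25.6% over all genes and 81.9%, 87.5% and 86.1% over the short arm. The 13 of 18 in M0 are thus near the share of their own arm. NPM1 fell to 0.562, 0.419 and 0.54 times WT and RPS14 to 0.472, 0.416 and 0.433, while CSNK1A1 stood at 0.918, 0.854 and 0.838 times. The gene called higher in each state was TNFAIP8, a regulator of cell death, with log2 differences of 1.21, 0.61 and 1.21. Of 25 cell cycle, replication and repair genes, 4 on the short arm and 21 on the long arm, 18 were called lower in M0 and 21 in each stimulated state, and 3, 2 and 3 higher. CCNB1, the mitotic cyclin B1, had ratios of 0.428, 0.473 and 0.401, and CDC23, a subunit of the anaphase-promoting complex, 0.504, 0.471 and 0.47. Of 21 macrophage receptor and signalling genes of 5q, 9, 13 and 10 were called lower and 5, 5 and 8 higher, with medians of -0.17, -0.33 and -0.23. HAVCR2, the TIM-3 receptor, stood at 0.675, 0.842 and 0.632 times WT, and MEF2C, a myeloid transcription factor, at 0.692, 0.583 and 0.729.

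A short-arm list, drawn up as cytokine and lipid-mediator receptors and innate adaptors, had 9 expressed members. Of these ANKH, ITGA1 and ITGA2 are of other kinds, and ITGA1 and ITGA2 lie right of the gap. Called higher were 5, 7 and 6 of the 9, and 2, 2 and 1 were called lower, in M0, M1 and M2. PTGER4, the EP4 receptor of prostaglandin E2, rose from 32.3 ± 1.80 to 75.4 ± 2.17 FPKM in M0 (SD, n = 4 each), and its ratio stood at 2.33, 3.21 and 2.19 in M0, M1 and M2. Of 22 genes of the ribosome, translation and tRNA charging, 14, 15 and 13 were called lower and 5, 4 and 5 higher. Many of the translation genes followed their arm: the methyltransferase NSUN2, the threonyl-tRNA synthetase TARS and PAIP1, on 5p, had log2 differences of 0.62 to 0.94 over the 3 states, while the nascent-chain factor BTF3 and the arginyl-tRNA synthetase RARS, on 5q, had -1.07 to -0.61. Others did not: RPL37 and the ribosome assembly factor BRIX1, on 5p, had -0.20 and -0.01 in M1, and the mitochondrial histidyl-tRNA synthetase HARS2, on 5q, had 0.02, -0.15 and -0.10. Of 18 genes of mitochondrial metabolism 11 were called lower and 6 higher in each state. HMGCS1, a 5p enzyme of cholesterol synthesis, had log2 differences of 0.78, 0.71 and 0.96. Of 24 chromatin and transcription genes 14, 16 and 13 were called lower and 5, 5 and 7 higher, and of 24 ubiquitin, chaperone and secretory genes 14, 13 and 14 lower and 8, 8 and 7 higher. Of 7 cytokine, growth factor and matrix genes of 5q 3, 4 and 5 were called lower and 2 higher in each state. A list of 6 genes was drawn up for peptide trimming and the class II chaperone, though CAST and IRF1 on it are of other kinds. In that list 2, 4 and 2 were called lower and 1, 0 and 3 higher. Of the near-identical copies of 5q13 (SMN1, SMN2, GTF2H2 and GTF2H2C) 2, 3 and 1 were called lower and 0 higher, with medians of -0.37, -0.65 and -0.34, but reads cannot be assigned to 1 copy with certainty.

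A pair of gene classes spread over the genome allowed chromosome 5 genes to be set beside others of their own kind. The 76 cytosolic ribosomal protein genes kept on other chromosomes were themselves lower in CES1KD, with median log2 differences of -0.53, -0.70 and -0.56 in M0, M1 and M2. RPL37, the ribosomal protein gene of the short arm, had 39.3, 38.0, 42.1 and 36.0 FPKM in WT M0 and 35.1, 39.3, 40.2 and 35.1 in CES1KD M0, which overlap, and its log2 difference was -0.05, -0.20 and 0.19. RPS14, RPS23 and RPL26L1 of the long arm had medians of -1.07, -1.26 and -1.23. RPS14 had 144, 137, 129 and 148 FPKM in WT M0 and 60.7, 64.8, 70.5 and 67.1 in CES1KD M0, with no overlap. RPL37 thus lay above the median of the class and the median of the 3 long-arm genes below it, although RPL26L1 alone, at -0.64 in M1, lay above it. For the nuclear genes of respiratory complexes the medians had the same order: 76 genes elsewhere had medians of -0.45, -0.39 and -0.47, NDUFS6 and SDHA on 5p 0.10, 0.08 and 0.25, and COX7C, UQCRQ, NDUFS4 and NDUFA2 on 5q -0.93, -0.90 and -1.02.

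Some genes went against their arm, on both sides of the gap. On the short arm 2 of 72 genes were lower in CES1KD in all 3 states, CCL28 and FYB1, and 61 were higher in all 3. On the long arm 46 of 429 were higher in all 3 states and 324 lower in all 3. Called in each state and with no overlap between the lines in any, 1 short-arm gene and 27 long-arm genes went against their arm, and 54 and 221 went with it. Over all genes kept, 13.6% met that rule higher and 13% lower. With the division between NDUFS4 and ARL15 the clear exceptions were 6 of the proximal block, 5 of them genes between the gap and the division, and the same number, 27, of the distal block. CCL28, a mucosal chemokine, was the clear exception of 5p, with 4.03, 3.90, 3.83 and 4.46 FPKM in WT M0 and 2.10, 2.69, 2.19 and 1.80 in CES1KD M0. Its ratios were 0.541, 0.509 and 0.606. FYB1, an adaptor of T cells and myeloid cells, stood at 0.605, 0.732 and 0.793 times WT, with overlap in M2.

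Ranked by the smallest difference over the 3 states, the first exception of the long arm was DUSP1, a phosphatase that switches off MAP kinases and is induced by their signals. DUSP1 had 7.59, 7.43, 6.45 and 6.69 FPKM in WT M0 and 34.3, 36.2, 38.0 and 43.1 in CES1KD M0. Every CES1KD library was above every WT library in each state, and the ratio stood at 5.38, 5.95 and 2.86 in M0, M1 and M2. PLK2, a stress-induced polo-like kinase, had 2.88, 2.89, 2.52 and 2.94 FPKM in WT M0 and 13.4, 14.2, 13.3 and 12.2 in CES1KD M0, and ratios of 4.72, 17.4 and 4.99 in M0, M1 and M2, where the WT M1 mean was 0.567 ± 0.13 FPKM. HBEGF, a growth factor that binds the EGF receptor, had 40.1, 40.7, 35.8 and 40.5 FPKM in WT M0 and 80.0, 84.3, 86.3 and 86.8 in CES1KD M0, a ratio of 2.15. CSF1R had 125, 126, 123 and 132 FPKM in WT M0 and 264, 273, 273 and 311 in CES1KD M0, and its ratio was 2.21, 1.32 and 1.39 in M0, M1 and M2. All 4 of these genes were separated between the lines in every state, in the direction against their arm.

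The other clear exceptions of 5q included genes of stress and degradation (SQSTM1, an autophagy receptor, and ARRDC3, an arrestin-like adaptor), of elongation by RNA polymerase II (ELL2), of matrix and secretion (TGFBI, SPOCK1, STC2 and the peptide-amidating enzyme PAM) and of podosomes (SH3PXD2B). Others are best known from neurons or lymphocytes, as DPYSL3, SNCB, HOMER1, ENC1, GABRB2, RGMB and EBF1. DPYSL3 was at 0.0833 to 0.267 FPKM in the 12 WT libraries and at 1.93 to 2.82 in the 12 CES1KD libraries, and 5 of the 27 clear exceptions (RGMB, PCDHGB4, DPYSL3, EBF1 and STC2) reached 1 FPKM in no WT library. SQSTM1 had log2 differences of 0.77, 0.74 and 0.52, and ELL2 of 1.17, 0.64 and 0.54. CD14 was also higher in all 3 states, at 1.26, 1.34 and 1.33 times WT, but in M2 it was not called and its libraries overlapped, and its call in M0 was lost when any of 6 single libraries was left out. Among the 46 genes higher in all 3 states, neighbouring members occurred in 3 places: TIGD6, HMGXB3 and CSF1R between 149.993 and 150.113 Mb, SH3PXD2B, DUSP1 and ERGIC1 between 172.325 and 172.953 Mb, and ARRDC3 with NR2F1.

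**Figure D4:**
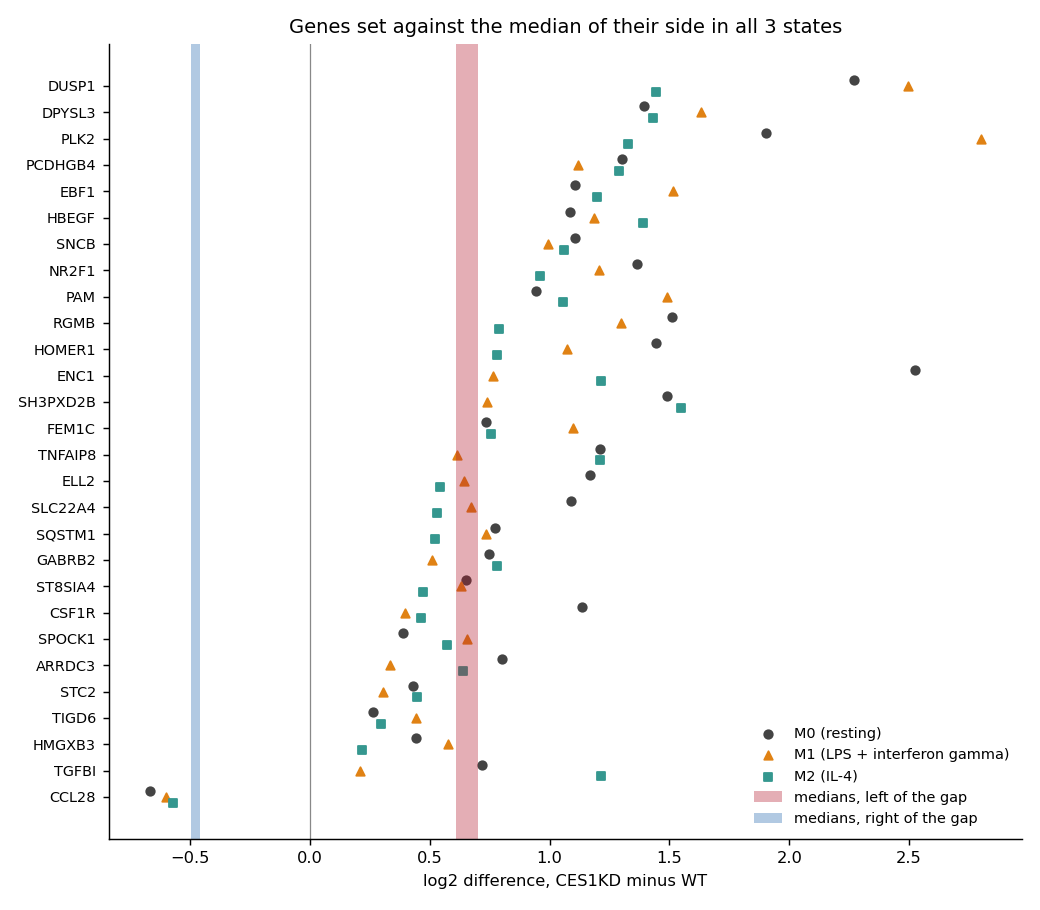
Log2 difference between CES1KD and WT (horizontal axis, log2(FPKM + 1)) in M0, M1 and M2 of the 27 long-arm genes and of CCL28, the short-arm gene, that went against their arm with a call and no overlap in all 3 states. Shaded bands are the range over states of the median of each arm; the 27 long-arm genes lie right of 0 and 2 of them, DUSP1 and PLK2, reach 2.49 and 2.80 in M1.

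RefSeq promoters, from 250 bases before to 50 after the start, were found for 40 of the 46 long-arm genes higher in all 3 states and 292 of the 324 lower in all 3. A TATA box (TATAAA, either strand) was in 10% of the exceptions, in 5.14% of the genes that followed the arm and in 5.49% of 8800 promoters of all genes kept. The 4 exceptions with it were DUSP1, HSPB3, MAP1B and NR3C1. A cAMP response element (TGACGTCA) was in 2.5%, 1.37% and 3.33%, with DUSP1 the exception that held it, and the CArG box letters marked in EGR1 were in 0.0341% of all promoters. A GC box (GGGCGG) was in 57.5% of the exceptions, 64.7% of the followers and 70.6% of all. These matches describe letters and not binding.

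Stimulation left the medians of both arms in place while single genes changed the size or sign of their difference between the lines. The change of the line difference from M0 to M1, tested as an interaction in limma, was called in 141 of the 501 genes (72 lower and 69 higher), 28.1% beside 23.6% of all genes (13.2% lower and 10.4% higher). Its median was 0.02 over the 501 genes and 0.00 over all genes. From M0 to M2 it was called in 50 of the 501 (30 lower and 20 higher), 9.98% beside 6.65% of all genes (4.24% lower and 2.41% higher), and in 66 without replicate 2 of CES1KD M2. This change had a median of -0.00 beside -0.02 over all genes. With scaling by total fragments, 53.0% of the M2 calls over all genes were higher, against 36.2% as deposited. The M1 and M2 changes share the M0 libraries of both lines and are not independent. Across the 501 genes the line differences of M0 and M1 correlated at r = 0.861, those of M0 and M2 at 0.935 and those of M1 and M2 at 0.857, as a description over genes that share arms and libraries.

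CD74, the invariant chain that escorts MHC class II, showed the largest change. It had 18.1, 15.9, 14.8 and 18.7 FPKM in WT M0 and 21.5, 21.6, 20.7 and 23.8 in CES1KD M0, and 677, 613, 693 and 744 in WT M1 against 181, 172, 188 and 198 in CES1KD M1. CES1KD was above WT at rest and far below it under M1, without overlap in either state. The change of the log2 difference was -2.24 (SE 0.11, limma adjusted p = 1.9e-12), and the M1 response itself was 5.26 in WT and 3.02 in CES1KD on the log2 scale. EGR1, whose line difference was called in M1 but not in M0 or M2, went from 40.1 ± 2.79 FPKM in WT M0 and 50.8 ± 3.77 in CES1KD M0 to 101 ± 10.9 and 46.7 ± 6.26 in M1 (SD, n = 4 each), a change of -1.44 (SE 0.23, limma adjusted p = 6.7e-05). IRF1, the interferon-induced transcription factor, rose under M1 from 5.37 ± 0.307 to 57.3 ± 4.77 FPKM in WT cells, and CES1KD cells went from 6.33 ± 0.329 to 34.8 ± 2.63, a change of -0.91 (SE 0.13, limma adjusted p = 2.3e-05). FST, the activin inhibitor follistatin, ENC1, ZNF366 and the lamin LMNB1 completed the 6 largest negative changes of the line difference, at -1.48, -1.76, -1.16 and -1.0.

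In the other direction, CD180, a receptor related to TLR4, was at 13.6 ± 0.669 FPKM in WT M0 and 3.45 ± 0.318 in CES1KD M0, but at 2.10 ± 0.406 and 2.85 ± 0.564 in M1 (SD, n = 4 each). It followed its arm at rest and not under M1, a change of 2.02 (SE 0.15, limma adjusted p = 7.1e-10). LPCAT1, a lysophosphatidylcholine acyltransferase of the short arm, had 6.60, 6.20, 6.46 and 6.64 FPKM in WT M0 and 5.57, 5.81, 4.67 and 5.46 in CES1KD M0. Under M1 it had 2.38, 2.50, 2.51 and 2.18 in WT and 8.18, 7.96, 7.46 and 7.34 in CES1KD, so CES1KD was lower than WT at rest and higher under M1, with no overlap in either state. The change was 1.60 (SE 0.08, limma adjusted p = 2.8e-12), and the M1 response was -1.14 in WT and 0.46 in CES1KD. DAB2, an endocytic adaptor, GAPT, GDNF and PCDHGA12 also had positive changes of the line difference, of 0.99 to 1.30. For DAB2, GAPT and PCDHGA12 these came with WT responses to M1 of -1.10, -1.24 and -1.22 and CES1KD responses that were not called. PCDHGA12 reached 1 FPKM in no CES1KD library and so had little room to fall there. Its ratio of mean FPKM was 0.00642 in M0 and 0.00795 in M1. Under voom the change of GDNF was -1.24 and that of PCDHGA12 was not called (limma voom adjusted p = 0.498).

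For M2 the largest change was in LOX, the lysyl oxidase that cross-links collagen. LOX was at 0.129 to 0.334 FPKM in the 8 M0 libraries, and at 15.6, 18.3, 17.0 and 17.6 in WT M2 against 2.11, 3.48, 2.11 and 2.90 in CES1KD M2. IL-4 raised it in both lines, less in CES1KD, with a change of -2.22 (SE 0.13, limma adjusted p = 1.4e-10) and of -2.32 without replicate 2 of CES1KD M2. The excess of CSF1R in CES1KD was smaller under M2 than at rest: IL-4 raised it from 127 ± 3.81 to 217 ± 9.38 FPKM in WT and left it at 280 ± 20.9 and 301 ± 28.5 in CES1KD, a change of -0.67 (SE 0.09, limma adjusted p = 1.9e-05). DUSP1 changed by -0.83 (SE 0.10, limma adjusted p = 9.7e-06) and EMB by 0.88 (SE 0.17, limma adjusted p = 0.0014). Without replicate 2 of CES1KD M2 the changes were -0.60 for CSF1R, -0.79 for DUSP1, 0.76 for EMB and 1.39 for OSMR. Of the other genes with the largest changes, ENC1, ZNF366, LCP2 (the adaptor SLP-76) and RGMB had changes of the line difference of -1.31 to -0.72, and OSMR, CAMK4, CD180, HK3 (a hexokinase) and DAB2 of 0.63 to 1.45. The M2 response of ZNF366 was 2.84 in WT and 1.73 in CES1KD, and that of ENC1 was 1.39 in WT and not called in CES1KD. The change of HK3 was not called without replicate 3 of WT M2 or replicate 3 of CES1KD M0. OSMR, the oncostatin M receptor of 5p, was at 0.247 ± 0.0603 FPKM in WT M2 and 5.40 ± 0.811 in CES1KD M2, and as ratios the line difference was 17.3 in M0 and 21.9 in M2. Its change was not called under voom (limma voom adjusted p = 0.827). The change of RGMB was not called under voom either (limma voom adjusted p = 0.571).

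**Figure D5:**
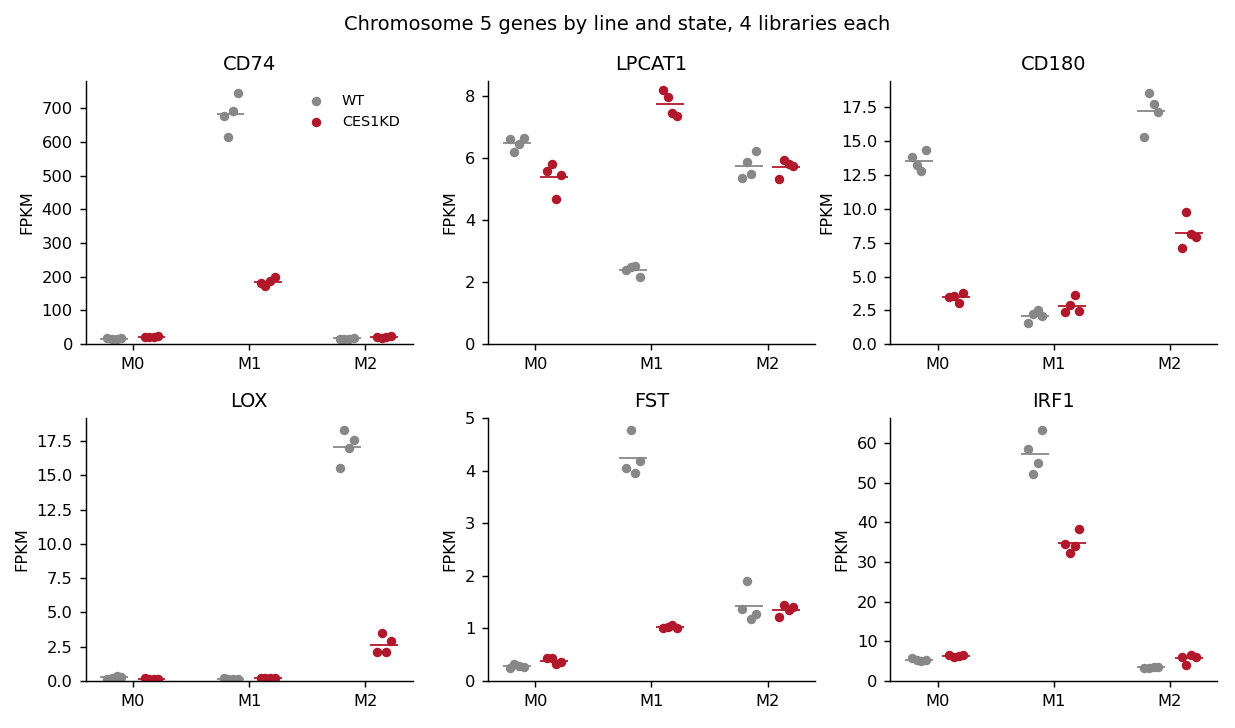
FPKM (vertical axes, from 0) of 6 chromosome 5 genes in M0, M1 and M2 (horizontal axis) in WT and CES1KD, with each of 4 libraries a point and the mean a line. CD74, IRF1 and FST rise less in CES1KD under M1, LOX rises less under M2, LPCAT1 falls under M1 in WT and rises in CES1KD, and CD180 falls in WT under M1 from a level that CES1KD did not have at rest.

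The stimuli moved many of the 501 genes within each line. In WT, M1 changed 287 of them (166 higher and 121 lower), 57.3% beside 48.1% of all genes (26.4% higher and 21.8% lower), and M2 changed 172 (90 higher and 82 lower), 34.3% beside 27.1% (14.6% higher and 12.5% lower). In CES1KD the counts were 255 for M1 beside 44.7% of all genes, and 139 for M2 beside 22.8%. Scaling by total fragments moved the median of all genes under M1 by -0.20 in WT and by -0.19 in CES1KD, and the share of higher calls from 54.8 to 26.2% and from 55.7 to 25.6%. Under M2 in WT it moved that share from 54.0 to 34.0%, so the split between rises and falls depends on the scaling. In WT under M1 the 5 largest rises were in CD74, IRF1, FST, IQGAP2 and SLC1A3, of which SLC1A3 went from 5.74 ± 0.661 to 23.8 ± 2.04 FPKM, and the 5 largest falls in CD180, KIF20A, DEPDC1B, LTC4S and ABLIM3. Under M2 the largest rises were in LOX, ZNF366, MAP1B, ENC1 and HOMER1, and the largest falls in CD14, IL7R, PLK2, GAPT and CAMK4. CD14 fell by 3.65 in WT and by 3.73 in CES1KD on the log2 scale, with WT means of 37.5 ± 4.13 before and 2.06 ± 0.275 FPKM after and CES1KD means of 47.3 ± 3.71 and 2.74 ± 0.919 (SD, n = 4). The labels do not say that replicates were separate cultures, so these tests measure only the spread between the libraries.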

How the data were processed

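Gene expression was measured by RNA sequencing in 24 libraries, 4 in each of 6 groups. The deposited table holds FPKM per gene, made by the authors, and the submitters' processing notes name CASAVA, HISAT2 and DESeq without versions or roles. The genome build and the strand of counting were not given in the sources used here, and gene coordinates equal GENCODE 29 (GRCh38) for 58724 of 58735 genes. In each library FPKM times gene length was a whole multiple of a fixed step (tolerance 1e-06), which gave the fragments behind each value. Libraries held 14881563 to 26671681 fragments. The unit is not a count, so the planned count tests were replaced by limma.

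Genes at 1 FPKM or above in at least 4 libraries were kept (13242). limma 3.58.1 (R 4.3.3) was fitted to log2(FPKM + 1) with 6 group means and a mean-variance trend, and p-values were adjusted by Benjamini-Hochberg over all genes kept, with 0.05 as threshold. The script was checked on simulated data. A log2 difference on this scale understates the change of low genes. Groups do not overlap where all 4 libraries of one lie above all 4 of the other. Medians and figures used python 3.11.15, numpy 2.4.6, pandas 2.3.3 and matplotlib 3.10.9. Symbols that had been turned into dates were restored for 27 genes, 3 of them among the 501. Promoters came from RefSeq (GRCh38.p14) for 449 of the 501 genes.

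The members, the gene lists and the division of the chromosome were chosen with earlier results of these data known. Named genes were 5 on each side of the division, up to 8 clear exceptions and the 8 furthest along the shift per block, the 6 called of each sign with the largest change between states, the 5 of each sign with the largest WT response, and up to 6 per list by level. The others, among them the flanks of the gap, TNFAIP8, CSNK1A1, NIPBL, ELL2, RARS and the further exceptions, were chosen after their values were seen. Some genes that the rule names are not reported here. Reads of overlapping genes, such as RICTOR and OSMR, PDLIM4 and P4HA2, LOX and SRFBP1, PPIC and SNX24, SQSTM1 and MGAT4B, may not be separable. Alternatives were another added value, other filters and scalings, fits on the recovered fragments, the replicate number as a block, other divisions, and each library left out in turn.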

Additional observations from a re-analysis of the deposited data

Results flagged for a closer look

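Among 306 groups of 4 libraries looked at, 18 had a library far from the other 3, and chance gives about 1 in 20. Replicate 2 of CES1KD M2 accounted for most. Its proximal median was 0.769, its shares of fragments were 1.255% for the proximal and 3.565% for the distal block, and its levels were 20.2 FPKM for RICTOR, 258.5 for CSF1R, 37.5 for RPS14, 3.945 for IRF1, 32.75 for EGR1, 107.4 for ENC1, 26.9 for SQSTM1 and 47.65 for ELL2. In other groups 1 library stood apart for NDUFS4 (38.3 FPKM in WT M2 replicate 4), PLK2 (2.52 in WT M0 replicate 3), HBEGF (35.8 in the same library), LOX (0.2015 in WT M1 replicate 1), GDNF (0.126 in CES1KD M2 replicate 1), PCDHGA12 (3.17 in WT M1 replicate 4) and SQSTM1 (38.3 in the same library).

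The difference between the lines changed from M0 to M1, by the interaction in limma, by -2.24 for CD74, -1.76 for ENC1, -1.48 for FST, -1.44 for EGR1, -1.16 for ZNF366 and -1.0 for LMNB1. It changed by 2.02 for CD180, 1.60 for LPCAT1, 1.30 for GDNF, 1.17 for PCDHGA12, 1.10 for DAB2 and 0.9855 for GAPT. From M0 to M2 it changed by -2.22 for LOX, -1.31 for ENC1, -1.11 for ZNF366, -0.83 for DUSP1, -0.76 for LCP2 and -0.72 for RGMB. It changed by 1.45 for OSMR, 0.88 for CAMK4, 0.88 for EMB, 0.73 for CD180, 0.70 for HK3 and 0.63 for DAB2.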

How the results depend on the processing

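The best division stayed between MRPS30 and EMB (50.3962 Mb) under each alternative run, and both block medians kept their sign. Proximal medians in M0 and M1, and distal medians in M0, M1 and M2 where 3 are given, were 0.699, 0.702, -0.556, -0.565 and -0.558 with 0.1 added in place of 1, 0.688, 0.694, -0.581, -0.592 and -0.561 by limma voom on recovered fragments, and 0.7045, 0.714, -0.571, -0.5695 and -0.557 as ratios of means. Scaled by total fragments they were 0.532, 0.532, -0.538 and -0.532. At a mean of 5 FPKM or above the proximal M0 median was 0.636 and the distal ones -0.508 and -0.525. There 193 distal genes were called lower in M0, 4 proximal and 23 distal genes lay opposite in 3 states, 3 and 15 clearly, and 91, 188 and 109 genes were called for the M1 change, WT M1 and WT M2. With the division at the gap the short arm gave 0.642 and 0.690, with 2 genes opposite and 1 clearly. In the 333 members that overlap no other kept gene, the proximal M1 median was 0.705, distal calls were 191, 191 and 193, and calls for the M1 change, WT M1 and CES1KD M1 were 93, 189 and 169. Fewer genes enter these last counts.

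Leaving out 1 library gave proximal medians of 0.566 to 0.608, 0.5955 to 0.629 and 0.497 to 0.603 and distal ones of -0.477 to -0.460, -0.497 to -0.453 and -0.496 to -0.450. Calls ranged over 123 to 172 for the M1 change, 38 to 66 for the M2 change, 271 to 321 and 141 to 205 for WT M1 and M2, and 238 to 285 and 116 to 150 for CES1KD. Deviations of same-numbered libraries of the lines correlated at -0.058 to 0.413, over 0.1 in 5 of 12 pairs, and 10 of 24 libraries correlated best with their own number, so the numbers were not taken to pair the libraries, though some M1 and M2 libraries deviated together. With them as a block, calls were 154 for the M1 change and 55 for the M2 change, and no call count moved by over 1.5 times. Some gene values turned sign, and the cause was not tested. Under total scaling the WT M1 response was -0.035 for PAIP1 and -0.18 for HBEGF. Under voom the M1 change was -1.24 for GDNF, 1.20 for RGMB and -0.39 for OSMR, and the M2 change was 0.10 for PLK2. Of the values of named genes, 10306 kept side and sign, 92 lost the call, 54 gained it and 6 turned sign. The planned count tests were not run, since the unit is FPKM. Levels below about 1 FPKM limit the M1 and M2 changes of GDNF, OSMR and RGMB. They also limit those of PCDHGA12 and CAMK4, which reached 1 FPKM in no CES1KD library.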
